A study of Mus musculus with 2 samples.

Results

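The Hox genes were examined in Tomato-positive cells sorted from the mouse trunk at embryonic days E11.5 and E12.5. The members were all 39 genes with a symbol of Hoxa, Hoxb, Hoxc or Hoxd and a number, among 33207 counted genes, so the rule itself uses no measured value. They were read in glia (cells with a UMI of Sox10 and none of Isl1), in neurons (a UMI of Isl1 and none of Sox10) and in non-neural cells. A UMI is a molecular tag that stands for 1 captured RNA molecule.

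Hox genes encode homeodomain transcription factors that give cells their position along the head-to-tail axis. They lie in clusters, and genes at the same place in different clusters form a paralogue group. Low-numbered groups begin to be expressed in the hindbrain, middle groups at neck and forelimb level, and the highest groups at lumbar and tail level. In the spinal cord and its ganglia the combination of Hox genes that a cell expresses reflects the segment it came from. Hox proteins bind DNA together with TALE cofactors of the Pbx, Meis and Pknox families.

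Both libraries came from embryos with the genotype label Egr2,R26mT (Egr2Cre/+; Rosa26 Tomato), in which Cre made from the Egr2 (Krox20) locus switches on Tomato, so that Tomato marks cells that expressed Egr2 and their descendants. The meninges were dissected together with the dorsal root ganglia and the dorsal and ventral roots, and Tomato-positive cells were sorted. The label of both samples calls them boundary cap cells, the cells that sit where nerve roots meet the spinal cord. There was 1 library per stage, with no replicate, so no test between stages or classes was possible. Each library pooled the sorted cells of the embryos of 1 litter, so stage, litter and library cannot be told apart.

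After filtering, the E11.5 library kept 833 of 1431 barcodes and the E12.5 library 3496 of 3762, with medians of 11601 and 6140 UMIs per cell. The E11.5 library was therefore the deeper one per cell, and 9 barcodes occurred in both libraries. E11.5 held 413 glia, 203 neurons and 56 non-neural cells, and E12.5 held 1213, 1337 and 227. Cells with UMIs of both Sox10 and Isl1 (104 and 286) and cells that met no definition (57 and 433) were kept apart. The classes bore their names in both libraries: all 10 listed glial markers were over 2-fold higher in glia than in neurons and all 11 neuronal markers over 2-fold higher in neurons, although Sox10 and Isl1 themselves had defined the classes. Markers of blood cells also differed between these classes at E12.5: 6 of 6 erythroid markers tested (8 listed, summed 596 CPM in neurons and 12.4 in glia, in counts per 1000000 UMIs) and 6 of 7 myeloid markers tested (9 listed, 46.3 and 15.3 CPM) were over 2-fold higher in neurons. At E11.5 the sums were 17.2 and 25.3 CPM for erythroid and 1.29 and 7.71 CPM for myeloid markers. Their part in the comparison of Hox genes between glia and neurons was not tested. The non-neural cells were mainly pericyte-like at E11.5 (46 of 56) and mainly mesenchymal-like at E12.5 (161 of 227), by the number of listed markers in each cell.

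The members lie in 4 clusters. HoxA holds 11 of them over 105 kb of chromosome 6, HoxB 10 over 174 kb of chromosome 11, HoxC 9 over 116 kb of chromosome 15 and HoxD 9 over 96.8 kb of chromosome 2 (GRCm39, the mm39 build of the files, GENCODE M39). Of the 39 members, 14 overlap another counted gene on the same strand and 18 overlap a counted gene on the opposite strand. These overlaps are of whole gene spans in GENCODE M39, and overlap of exons was not read. The annotation release behind the counts is not given in the sources used here and may differ. The Hoxc5 model runs from 102875878 to 102925861 on chromosome 15 and spans Hoxc6, Hoxc8 and Hoxc9 and part of Hoxc10, and the Hoxa3 model spans Hoxa4, Hoxa5 and Hoxa6. How reads from such shared stretches were counted is not given in the sources used here. Hoxb2 to Hoxb9, Hoxc4, Hoxa7 and Hoxa9 have no same-strand overlap. The kit reads the 3′ end of a transcript and was used without a correction for length, so levels of single genes are compared between classes, and the UMIs of different genes are set side by side only as shares of the Hox UMIs counted, which also depend on how well each gene is captured.

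The sequences upstream of 3 of the members that differed between glia and neurons are shown. Hoxb9, Hoxb5, Hoxb3 and Hoxb7, which also differed, had no matched promoter. Hoxa2 and Hoxb4 were higher in neurons and Hoxa9 was higher in glia in both libraries. RefSeq promoter sequences were matched for 22 of the 39 symbols (24 promoters), and the 250 bases before the start site are printed 5′ to 3′ on the strand of the gene, in coordinates of GRCm38.p6, which differ from the GRCm39 coordinates used elsewhere.  Capitals mark matches to 4 motifs searched on both strands: TGATNNAT (a Pbx and Hox composite site), TTTATG (Cdx), CCAAT, and the direct repeat of AGGTCA with a spacer of 5 bases, which retinoic acid receptors bind. None of these motifs overlapped another in the 3 sequences. The Hoxa2 stretch is chr6:52164832-52165081 (minus strand), that of Hoxb4 is chr11:96318017-96318266 (plus strand) and that of Hoxa9 is chr6:52227371-52227620 (minus strand).
Hoxa2: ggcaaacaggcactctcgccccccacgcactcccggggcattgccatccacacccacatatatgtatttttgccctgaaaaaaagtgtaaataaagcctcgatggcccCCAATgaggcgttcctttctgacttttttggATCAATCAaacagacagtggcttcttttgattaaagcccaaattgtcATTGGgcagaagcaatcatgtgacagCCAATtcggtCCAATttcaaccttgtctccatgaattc
Hoxb4: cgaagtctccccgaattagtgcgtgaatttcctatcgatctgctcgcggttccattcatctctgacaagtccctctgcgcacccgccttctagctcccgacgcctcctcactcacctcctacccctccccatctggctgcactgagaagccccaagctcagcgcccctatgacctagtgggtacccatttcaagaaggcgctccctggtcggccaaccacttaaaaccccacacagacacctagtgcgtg
Hoxa9: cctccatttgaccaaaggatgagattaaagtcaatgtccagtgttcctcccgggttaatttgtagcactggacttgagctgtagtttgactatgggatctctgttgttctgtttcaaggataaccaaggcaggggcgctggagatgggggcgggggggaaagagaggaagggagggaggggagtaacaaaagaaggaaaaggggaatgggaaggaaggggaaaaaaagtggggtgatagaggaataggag

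The Hoxa2 stretch held 5 matches, 1 of TGATNNAT and 4 of CCAAT, and those of Hoxb4 and Hoxa9 held none of the 4 motifs. TGATNNAT occurred in 4 of the 24 Hox promoters (16.7%) against 7.68% of all 32851 promoters, TTTATG in 5 (20.8%) against 10.8%, and CCAAT in 14 (58.3%) against 33.8%. The retinoic acid repeat occurred in none of the Hox promoters and in 3 promoters of all. Hox promoters held a median of 12.5 CpG dinucleotides in these 250 bases, against 6 for all promoters. For some of the 24 Hox promoters, not including the 3 printed, the window did not end at the start of a GENCODE M39 transcript. These matches describe letters in a window and not bound sites.

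Of the 39 members, 26 had a UMI in the filtered cells of E11.5 and 31 in those of E12.5, with 10264 and 18005 Hox UMIs in all. Paralogue groups 1 to 9 were detected at both stages. Groups 10 to 13, which are known for lumbar, sacral and tail levels, had no UMI in any barcode at E11.5, which allows a member up to 0.314 CPM, taking 3 counts as the limit. At E12.5 they had 182 UMIs in 94 of the 3496 cells, from Hoxa10, Hoxa11, Hoxc10 and Hoxd10. Hoxa13, Hoxb13, Hoxc11, Hoxc12, Hoxc13, Hoxd11, Hoxd12 and Hoxd13 were at 0 in both libraries, which at E12.5 allows up to 0.134 CPM. Hoxd9 was also at 0 at E11.5.

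The Hox UMIs were spread unevenly over the members. Hoxb9, Hoxb6, Hoxa7, Hoxb4 and Hoxb2 gave 43.9% of the Hox UMIs at E11.5, and Hoxb4, Hoxb2, Hoxb3, Hoxb6 and Hoxc4 gave 45.7% at E12.5. HoxB gave the most Hox UMIs of any cluster in neural cells. It held 55.9% and 59.0% of the Hox UMIs of glia at E11.5 and E12.5 and 65.6% and 65.5% of those of neurons, whereas HoxD gave between 3.79% and 4.68%. Hoxa6, Hoxb1, Hoxd3 and Hoxd8 were at under 5 CPM in every class of both libraries.

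Summed over all members, Hox genes made up a similar part of the RNA of glia and neurons at E11.5. The level, in CPM of the summed UMIs of a class, was 1094 in glia (95% exact Poisson interval 1065 to 1123) and 1045 in neurons (1004 to 1088), a ratio of 1.05 (0.998 to 1.10). At E12.5 it was 755 in glia (736 to 775) and 882 in neurons (863 to 902), a ratio of 0.856 (0.828 to 0.885). All intervals here cover counting error only, since the cells of a class come from 1 library. Non-neural cells stood lower as a class, at 421 (367 to 481) and 597 (558 to 639). At E12.5 this class included 31 myeloid-like cells at 24.0 CPM. Its 161 mesenchymal-like cells alone stood at 768 (712 to 827), near the level of glia.

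Myeloid-like cells were read as a rough measure of free RNA, on the assumption that they make little Hox RNA of their own. Their 31 cells at E12.5 had 6 Hox UMIs in 6 cells, or 24.0 CPM (8.83 to 52.3). This was far under mesenchymal-like cells (768) and pericyte-like cells (647) of the same library. No cell was classed as myeloid-like at E11.5, so there is no such measure for that library.

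Most glia and neurons had a Hox UMI. In cells thinned to 2000 UMIs the share with at least 1 Hox UMI was 81.4% of glia (77.3 to 85.0, exact binomial) and 86.2% of neurons (80.7 to 90.6) at E11.5. The random draw moved the value for neurons, and the share expected over all draws was 84.6% for glia and 81.9% for neurons, so no order between the 2 classes is read at E11.5. At E12.5 the shares were 69.3% of glia (66.6 to 71.9) and 73.6% of neurons (71.1 to 76.0). Non-neural cells had 42.9% (29.7 to 56.8) and 52.8% (45.9 to 59.6). The E12.5 value includes the myeloid-like cells, of which 6.90% (2 of 29 cells, 0.846 to 22.8) had a Hox UMI. Mesenchymal-like cells alone had 60.3% (52.0 to 68.1) at E12.5. Without thinning the shares were 98.1%, 99.5% and 82.1% at E11.5 and 90.1%, 94.5% and 74.0% at E12.5, in that order of classes, and 19.4% in myeloid-like cells, whose median depth of 8772 UMIs was above the 6088 of glia. No cell was under 2000 UMIs at E11.5, and thinning left out 38 glia, 46 neurons and 13 non-neural cells at E12.5.

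Single cells expressed several members at once. The median glial cell or neuron thinned to 5000 UMIs held 4 different members in the E11.5 library and 3 in the other, and the median non-neural cell held 2 at both stages. Without thinning, the largest number in 1 cell was 16 in glia and 15 in neurons, both at E11.5 and, for neurons, also at E12.5.

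**Figure D1:**
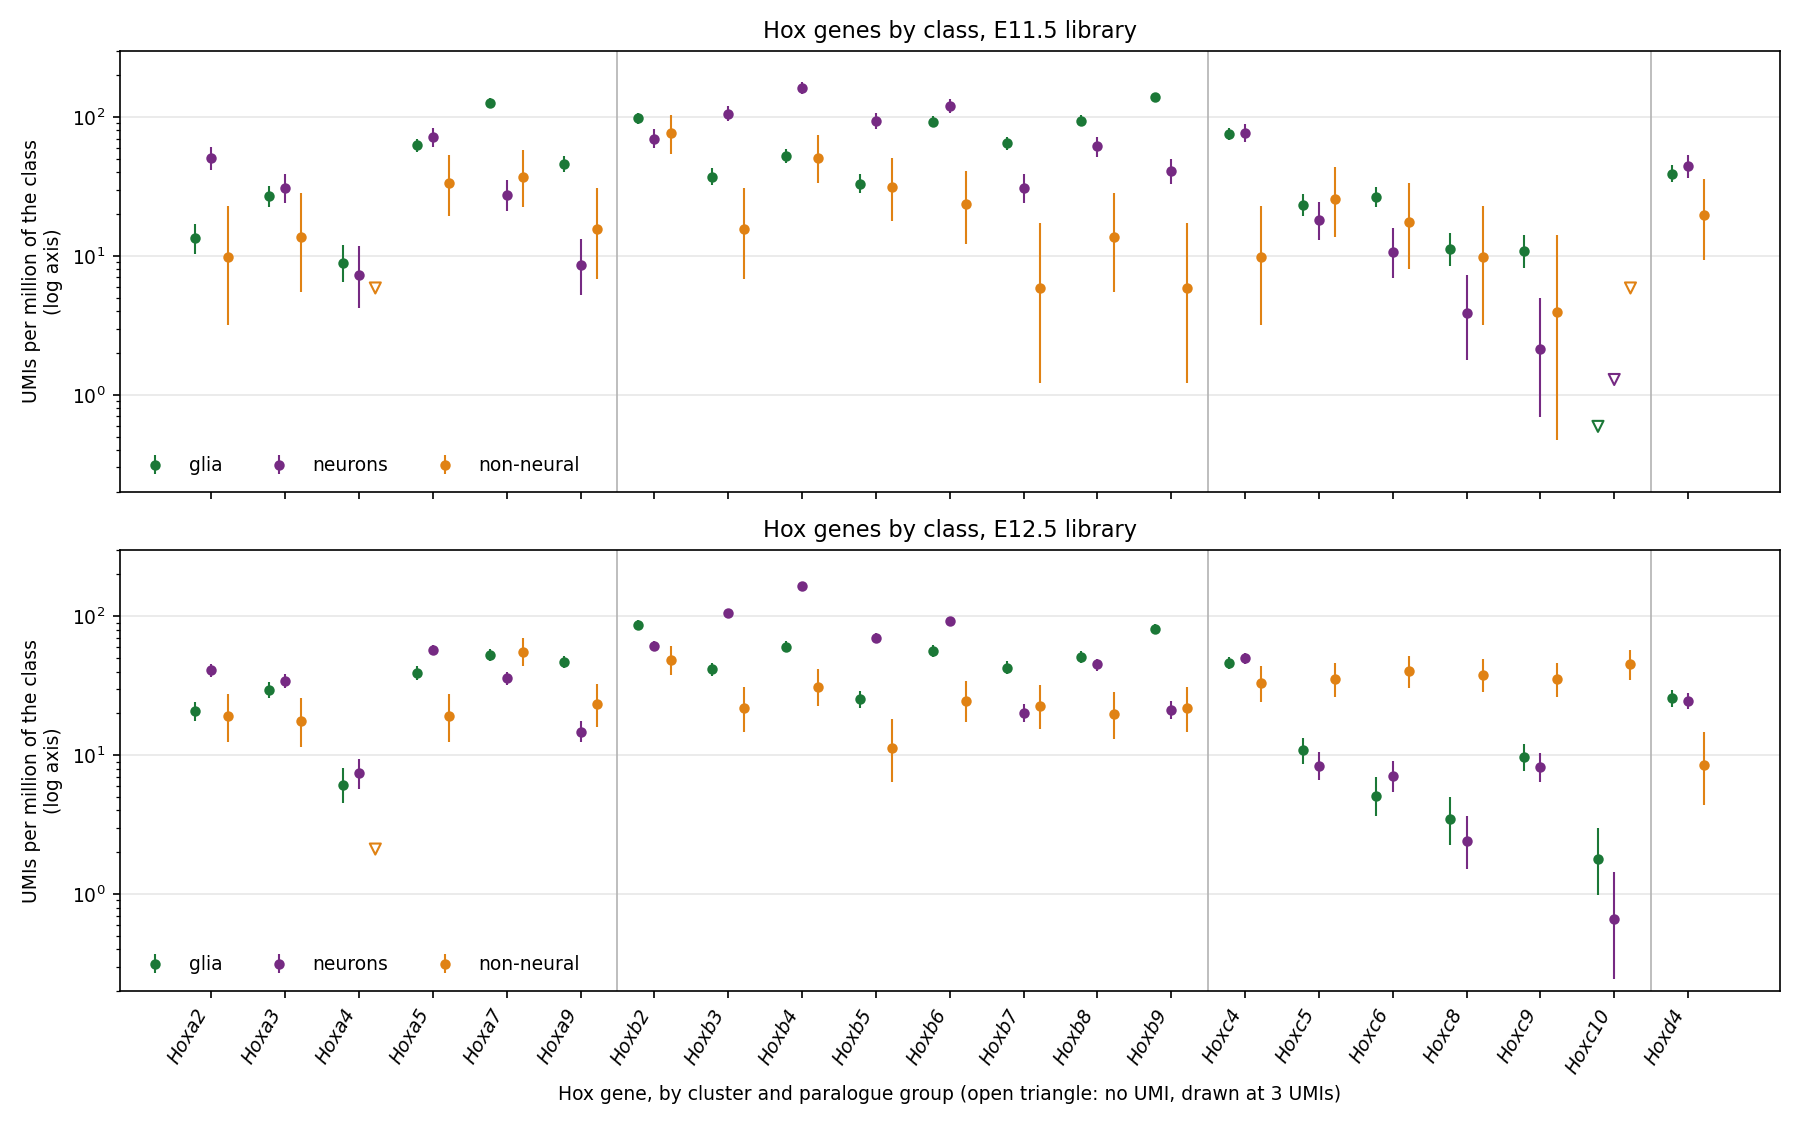
Level of the 21 Hox genes with a UMI in at least 5% of the cells of a class in either library, in CPM (log axis), ordered by cluster and paralogue group, with E11.5 above and E12.5 below. Points are glia (green), neurons (purple) and non-neural cells (orange), bars are 95% Poisson intervals, and open triangles mark genes with no UMI, drawn at 3 UMIs. Hoxb3, Hoxb4 and Hoxb5 are highest in neurons in both panels, Hoxb9 and Hoxa9 are highest in glia, and Hoxc5 to Hoxc10 are highest in non-neural cells at E12.5.

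The main difference between glia and neurons was along the paralogue order. Groups 1 to 5 gave 70.7% of the Hox UMIs of neurons at E11.5 (68.9 to 72.5) and 71.6% at E12.5 (70.6 to 72.6), but only 43.8% (42.5 to 45.2) and 52.4% (51.2 to 53.7) of those of glia. Group 9 gave 17.9% and 18.4% in glia and 4.93% and 5.02% in neurons. As shares of Hox UMIs, glia thus held more of the posterior groups and neurons more of the anterior ones in both libraries, and the intervals did not overlap. The anterior excess of neurons was not shared by all members of groups 1 to 5. At E11.5, 4 of 11 with 30 or more UMIs in both classes together had a glia over neurons ratio with an interval below 1. For 6 it held 1. At E12.5 these were 7 and 5 of 13. Hoxb2 lay above 1 in both libraries. Groups 1 to 5 stood at 739 CPM in neurons and 479 in glia at E11.5, and at 632 and 396 at E12.5. Most of that gap lay in Hoxb3, Hoxb4 and Hoxb5. In CPM, groups 6 to 8 stood at 419 in glia and 255 in neurons at E11.5, but at 212 and 204 at E12.5. Group 9 stood at 196 and 51.5 at E11.5 and at 139 and 44.3 at E12.5.

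Counted by gene, 20 members had 30 or more UMIs in glia and neurons together at E11.5. Of these, 7 were over 2-fold higher in glia, where 17.0% of all 10782 genes tested were, and 4 over 2-fold higher in neurons, where 10.4% were. At E12.5, 4 of 23 members were over 2-fold higher in glia (20.7% of 13112 genes) and 5 in neurons (12.8%). The share of members past 2-fold at E12.5 was 17.4% for glia, below the background, and 21.7% for neurons, above it. The 9 members of groups 6 to 13 had a median ratio of glia over neurons of 2.91 at E11.5 and the 10 at E12.5 one of 1.44, against 0.879 and 0.684 for the 11 and 13 members of groups 1 to 5. Over all genes with 100 or more UMIs and some in each class the median ratio was 1.09 and 1.08. Of 20 members tested in both libraries, 17 had a ratio on the same side of 1 in both, and Hoxa4, Hoxc6 and Hoxd4 did not.

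Among the posterior members, Hoxb9 is 1 of the genes known to pattern the thoracic skeleton and lies at 96162150 to 96167421 on chromosome 11. It had 703 UMIs in glia and 95 in neurons at E11.5, or 139 and 40.8 CPM, and 636 and 192 at E12.5, or 81.2 and 21.2 CPM. The ratio of glia over neurons was 3.40 (2.74 to 4.26) and 3.83 (3.25 to 4.52). Its UMIs were found in 64.4% of glia and 21.2% of neurons at E11.5 and in 30.0% and 9.35% at E12.5.

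Hoxa9, its paralogue in HoxA at 52200080 to 52208069 on chromosome 6, went the same way. It stood at 45.8 CPM in glia and 8.59 in neurons at E11.5 (5.34-fold, 3.38 to 8.90) and at 46.9 and 14.8 at E12.5 (3.17-fold, 2.59 to 3.89). Hoxb7 stood at 64.8 CPM in glia and 30.9 in neurons at E11.5 (2.10-fold, 1.62 to 2.74) and at 42.7 and 20.2 at E12.5 (2.11-fold, 1.76 to 2.54). These 3 members were past 2-fold in both libraries.

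Other posterior members differed more between libraries. Hoxa7, a gene of trunk levels, was 4.64-fold higher in glia at E11.5 (3.58 to 6.09, 127 against 27.5 CPM) but 1.46-fold at E12.5 (1.26 to 1.70, 52.4 against 35.8). Hoxc9, which is needed for thoracic motor neuron identity, had a ratio of 5.06 at E11.5 (2.04 to 16.2, from 55 and 5 UMIs) and of 1.19 at E12.5 (0.851 to 1.66). Hoxc8 and Hoxc6, both active at forelimb level, stood at 2.91 and 2.48 at E11.5 and at 1.42 and 0.722 at E12.5, where both intervals held 1. Whether these ratios differ between stages was not tested.

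Within the middle groups, Hoxb6 was the member that was lower in glia in both libraries, with ratios of 0.771 (0.663 to 0.897) and 0.610 (0.543 to 0.686). Hoxb8 had a ratio of 1.53 (1.27 to 1.86) at E11.5 and 1.13 (0.982 to 1.30) at E12.5, where the interval held 1. Hoxa10, a lumbar-level gene at 0 in the E11.5 library, had 50 UMIs in glia and 16 in neurons at E12.5 and a ratio of 3.61 (2.02 to 6.80).

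Of the anterior members of HoxB, Hoxb3, Hoxb4 and Hoxb5 were higher in neurons. Hoxb4, at 96209093 to 96212464 on chromosome 11 and known for its anterior limit in the caudal hindbrain, had 376 UMIs in neurons and 266 in glia at E11.5, or 161 and 52.6 CPM, and 1487 and 474 at E12.5, or 164 and 60.5 CPM. It was 3.07-fold (2.62 to 3.61) and 2.71-fold (2.45 to 3.02) higher in neurons. It was found in 73.9% of neurons and 40.2% of glia at E11.5 and in 61.0% and 30.2% at E12.5, the highest share of neurons of any member in both libraries.

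Hoxb3 and Hoxb5, its neighbours in the cluster, behaved alike. Hoxb3 stood at 106 CPM in neurons and 37.3 in glia at E11.5 (2.84-fold, 2.34 to 3.45) and at 105 and 41.4 at E12.5 (2.53-fold, 2.22 to 2.87). Hoxb5, a gene studied in neural crest of the gut, stood at 94.0 CPM in neurons and 33.2 in glia at E11.5 (2.83-fold, 2.31 to 3.49) and at 69.6 and 25.3 at E12.5 (2.75-fold, 2.34 to 3.25). Hoxb2, the next gene towards the anterior end and a regulator of hindbrain segments, went the other way, at 98.0 CPM in glia and 70.0 in neurons (ratio 1.40, 1.17 to 1.68) and at 86.6 and 60.9 (1.42, 1.27 to 1.59).

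Hoxa2, the most anterior-acting Hox gene in the embryo and a determinant of the second branchial arch, lies at 52138599 to 52141811 on chromosome 6. It was 3.77-fold higher in neurons at E11.5 (2.78 to 5.16, 50.7 against 13.4 CPM) and 1.96-fold at E12.5 (1.62 to 2.37, 40.8 against 20.8). Its paralogue Hoxb2 is the reverse case above. The other anterior members outside HoxB that were tested in both libraries differed less between the classes. Hoxa3, Hoxa4, Hoxc4, Hoxc5 and Hoxd4 had ratios between 0.828 and 1.29 in both libraries, with intervals that held 1, and Hoxa5, known for its part in the lung and the phrenic motor column, had 0.879 (0.726 to 1.07) and 0.684 (0.592 to 0.790).

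Hoxd1 stood apart at E12.5. It is known from work on mouse pain-sensing neurons and lies at 74593324 to 74595486 on chromosome 2. It had 50 UMIs in 2.39% of neurons (5.52 CPM) and 3 UMIs in glia (0.383 CPM), a ratio of neurons over glia of 14.4 (4.66 to 72.3). At E11.5 it had 3 UMIs in neurons and 11 in glia, too few to be tested.

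**Figure D2:**
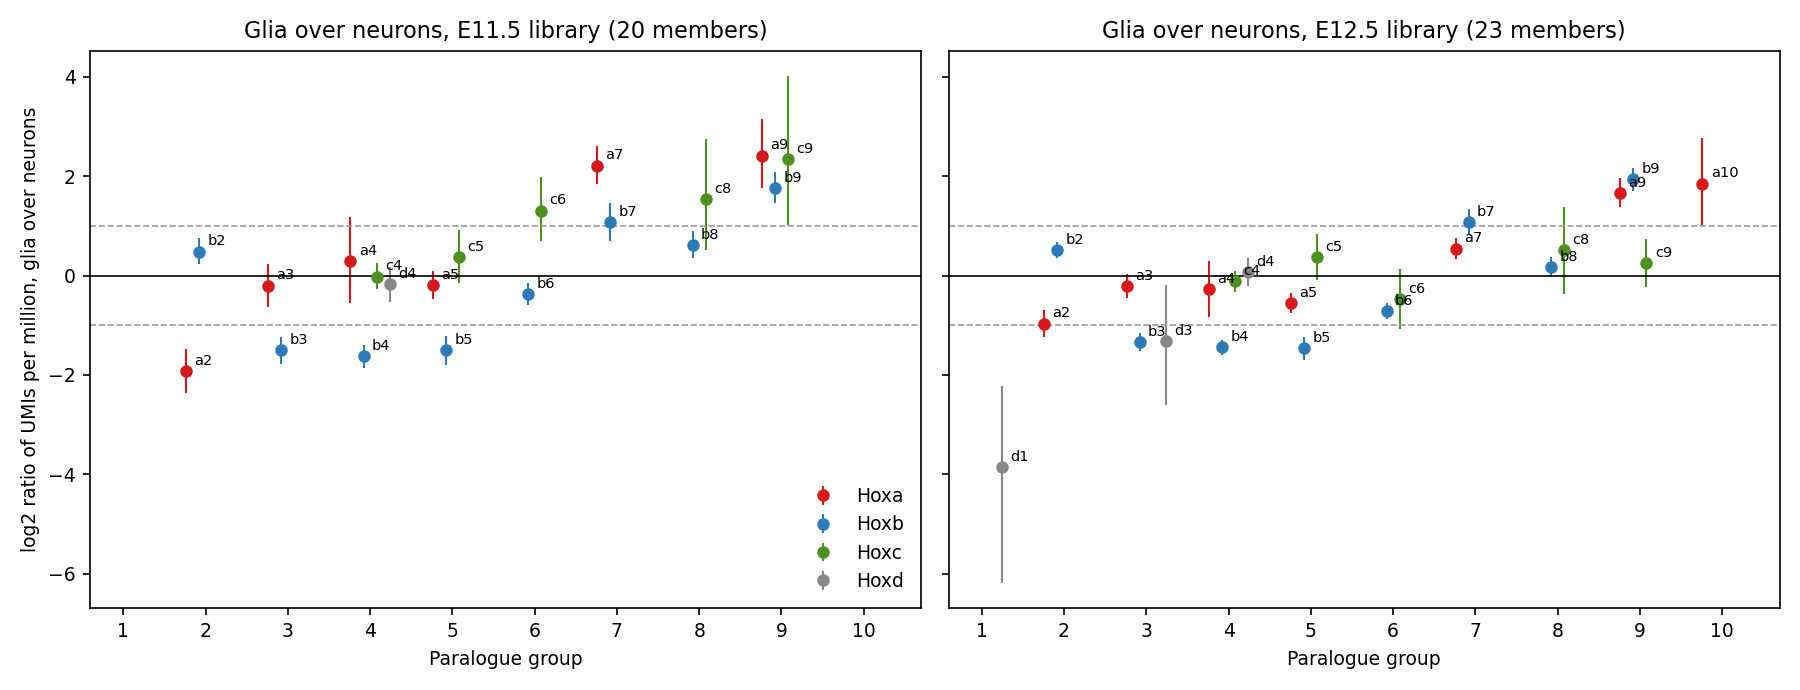
log2 ratio of CPM in glia over neurons against paralogue group, for the 20 members with 30 or more UMIs in both classes together at E11.5 (left) and the 23 at E12.5 (right). Points are coloured by cluster and labelled without the prefix Hox, bars are 95% counting intervals, and dashed lines mark 2-fold. Hoxb9 sits at 1.77 and 1.94 and Hoxa9 at 2.42 and 1.66, above the upper dashed line in both panels, while Hoxb3, Hoxb4 and Hoxb5 lie between -1.62 and -1.34, below the lower one.

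Cells with UMIs of both Sox10 and Isl1 lay between the classes in the share of groups 1 to 5, but not in every measure. Their summed Hox level was 1240 CPM (1181 to 1301) at E11.5, above both classes, and 880 (841 to 921) at E12.5, near neurons. Groups 1 to 5 gave 55.9% (53.5 to 58.3) of their Hox UMIs at E11.5 and 58.2% (56.0 to 60.5) at E12.5. Their doublets were removed only by the Scrublet score, and whether the rest hold RNA of 2 cells was not tested. Glia with a UMI of Prss56, a boundary cap marker, had 45.9% (43.5 to 48.3) in groups 1 to 5 at E11.5 against 42.9% (41.4 to 44.5) in glia without it, and 47.5% (45.3 to 49.7) against 55.0% (53.4 to 56.5) at E12.5.

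Counting the highest-numbered group with a UMI in each cell gave the same order. At 5000 UMIs per cell, group 9 or higher was reached by 48.2% of glia (42.8 to 53.7, 342 cells) and 17.1% of neurons (11.9 to 23.4, 181 cells) at E11.5, and by 34.2% (31.0 to 37.6, 818 cells) and 11.3% (9.46 to 13.4, 1033 cells) at E12.5. The largest fraction of neurons ended at groups 4 to 5, with 45.3% and 47.1%, where 14.0% and 26.0% of glia did. No Hox UMI was found in 3.22% of glia and 3.87% of neurons at E11.5 and in 10.0% and 7.84% at E12.5. Cells under 5000 UMIs were left out, namely 71 glia and 22 neurons at E11.5 and 395 and 304 at E12.5.

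**Figure D3:**
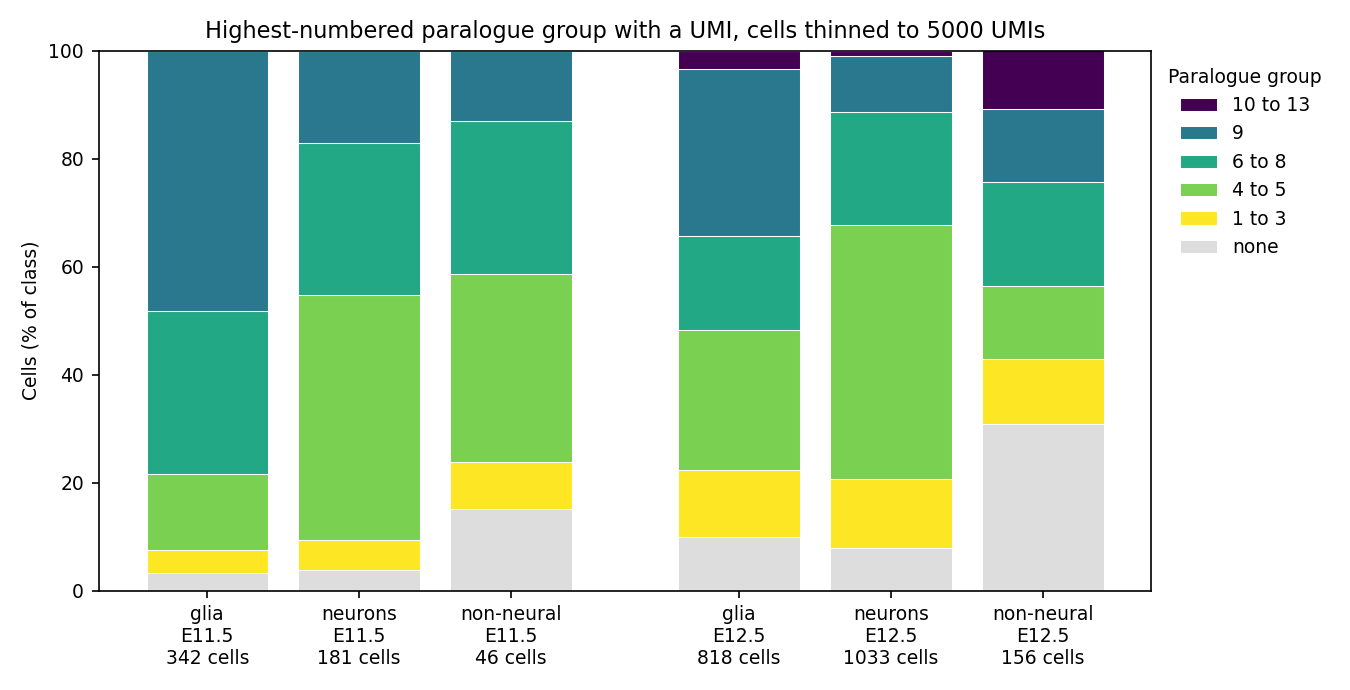
Share of the cells of each class by the highest-numbered paralogue group with a UMI, in cells thinned to 5000 UMIs, for both libraries. Each bar adds up to all cells of the class, from no Hox UMI (grey) to groups 10 to 13 (dark purple). The part of the bar at group 9 or higher is 48.2% and 34.2% in glia and 17.1% and 11.3% in neurons, and groups 10 to 13 appear only in the E12.5 bars, with 10.9% of non-neural cells.

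Posterior genes occurred together in cells. Among neurons with a UMI of group 9 or higher, all 31 in the E11.5 library and 92.3% in the E12.5 library (108 of 117) also had a UMI of groups 6 to 8, against 34.0% and 23.6% of the other neurons. In glia the shares were 91.5% against 58.2% at E11.5 and 83.2% against 26.4% at E12.5. Cells with both bands were 2.21 and 2.94 times as frequent in neurons as the product of the separate shares, and 1.23 and 1.82 times in glia. Groups 6 to 8 were found in 254 of 342 glia and 82 of 181 neurons at E11.5, and in 375 of 818 and 324 of 1033 at E12.5. A ratio has less room where a band is more frequent, so the classes are not ranked by it. The same held for the non-neural cells of E12.5, at 2.05 times.

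In glia and neurons, groups 4 to 5 gave ratios near 1 with group 9 or higher. They were found in most neurons (158 of 181 in the E11.5 and 771 of 1033 in the E12.5 library), which leaves a ratio little room. They were found with group 9 or higher at 0.920 and 1.01 times the product in glia and at 1.07 and 1.08 times in neurons. Groups 1 to 3 stood at 0.980 and 0.974 times in glia and at 0.981 and 0.815 times in neurons. Hoxb4 was detected in 47.9% of the E12.5 neurons with group 9 or higher and in 51.9% of the others, with overlapping intervals. Hoxa5 and Hoxc4 were more frequent with posterior genes in those neurons, at 35.0% (26.5 to 44.4) against 18.7% (16.2 to 21.3) and at 32.5% (24.1 to 41.8) against 19.3%, whose intervals do not overlap either. In glia at E12.5 both genes stood at like shares, 14.6% against 15.1% and 17.9% against 18.2%. In E11.5 neurons Hoxa5 had the opposite order, 19.4% against 30.0%, and Hoxc4 the same order, 48.4% against 24.0%. In E11.5 glia both were lower with posterior genes, at 23.0% against 26.6% and 22.4% against 35.6%. The intervals of each of these E11.5 comparisons overlapped. As a background, the median over all pairs with at least 5 expected cells was 1.07 and 1.09 in glia and 1.08 and 1.13 in neurons, over 124, 137, 75 and 148 pairs.

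Hoxa2 and, except in E11.5 neurons, Hoxd4 were found in a smaller share of cells with posterior genes than of cells without. Hoxa2 had a UMI in 3.23% of the neurons with group 9 or higher and 24.0% of the others at E11.5, in 5.98% (2.44 to 11.9) and 20.0% (17.4 to 22.7) at E12.5, and in 2.86% (1.24 to 5.55) and 11.7% (9.12 to 14.7) of glia at E12.5. Glia at E11.5 had 4.24% and 6.78%, with overlapping intervals. Hoxd4 was in 5.71% (3.30 to 9.11) of the E12.5 glia with group 9 or higher and in 14.5% (11.6 to 17.8) of the others, and in 5.13% (1.90 to 10.8) and 12.4% (10.4 to 14.8) of the E12.5 neurons. At E11.5 the glial shares were 10.9% (6.59 to 16.7) and 19.8% (14.2 to 26.4). In neurons at E11.5 Hoxd4 had the opposite order, 25.8% against 14.7%, with overlapping intervals.

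Ratios of single pairs ran from 0.206 to 6.15 over the 148 pairs in E12.5 neurons. In glia they ran from 0.164 to 1.75 over 124 pairs at E11.5 and from 0.162 to 2.80 over 137 pairs at E12.5. The pairs named next lie at or near these ends, and the medians after them describe the pairs as a whole. Hoxa7 and Hoxb9, on different chromosomes, were found together in 48 neurons at E12.5 where the product of their shares gave 7.80, or 6.15 times (4.56 to 8.10). Hoxa7 and Hoxa9 were together in 38 glia of E11.5 and 44 of E12.5, or 1.75 (1.26 to 2.35) and 2.45 times (1.79 to 3.25) the product. Hoxa2 and Hoxb9 were together in 3 neurons and 5 glia at E12.5, or 0.206 (0.0426 to 0.602) and 0.270 times (0.0879 to 0.629). Pairs in which both genes were in groups 6 to 9 had a median of 3.12 in neurons at E12.5 over 16 pairs, against 0.966 over the 75 pairs with 1 gene in groups 1 to 5. The same medians were 2.05 (5 pairs) and 1.10 (33 pairs) in neurons at E11.5. In glia they were 1.22 (22 pairs) against 0.923 (66 pairs) in the E11.5 library and 1.91 (20 pairs) against 0.967 (69 pairs) in the E12.5 library. The ratio of a pair has less room where its genes are in more cells. Hoxb9 was in 139 of 342 glia and 26 of 181 neurons at E11.5. The lower medians of glia within groups 6 to 9 are therefore not read as weaker co-detection.

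**Figure D4:**
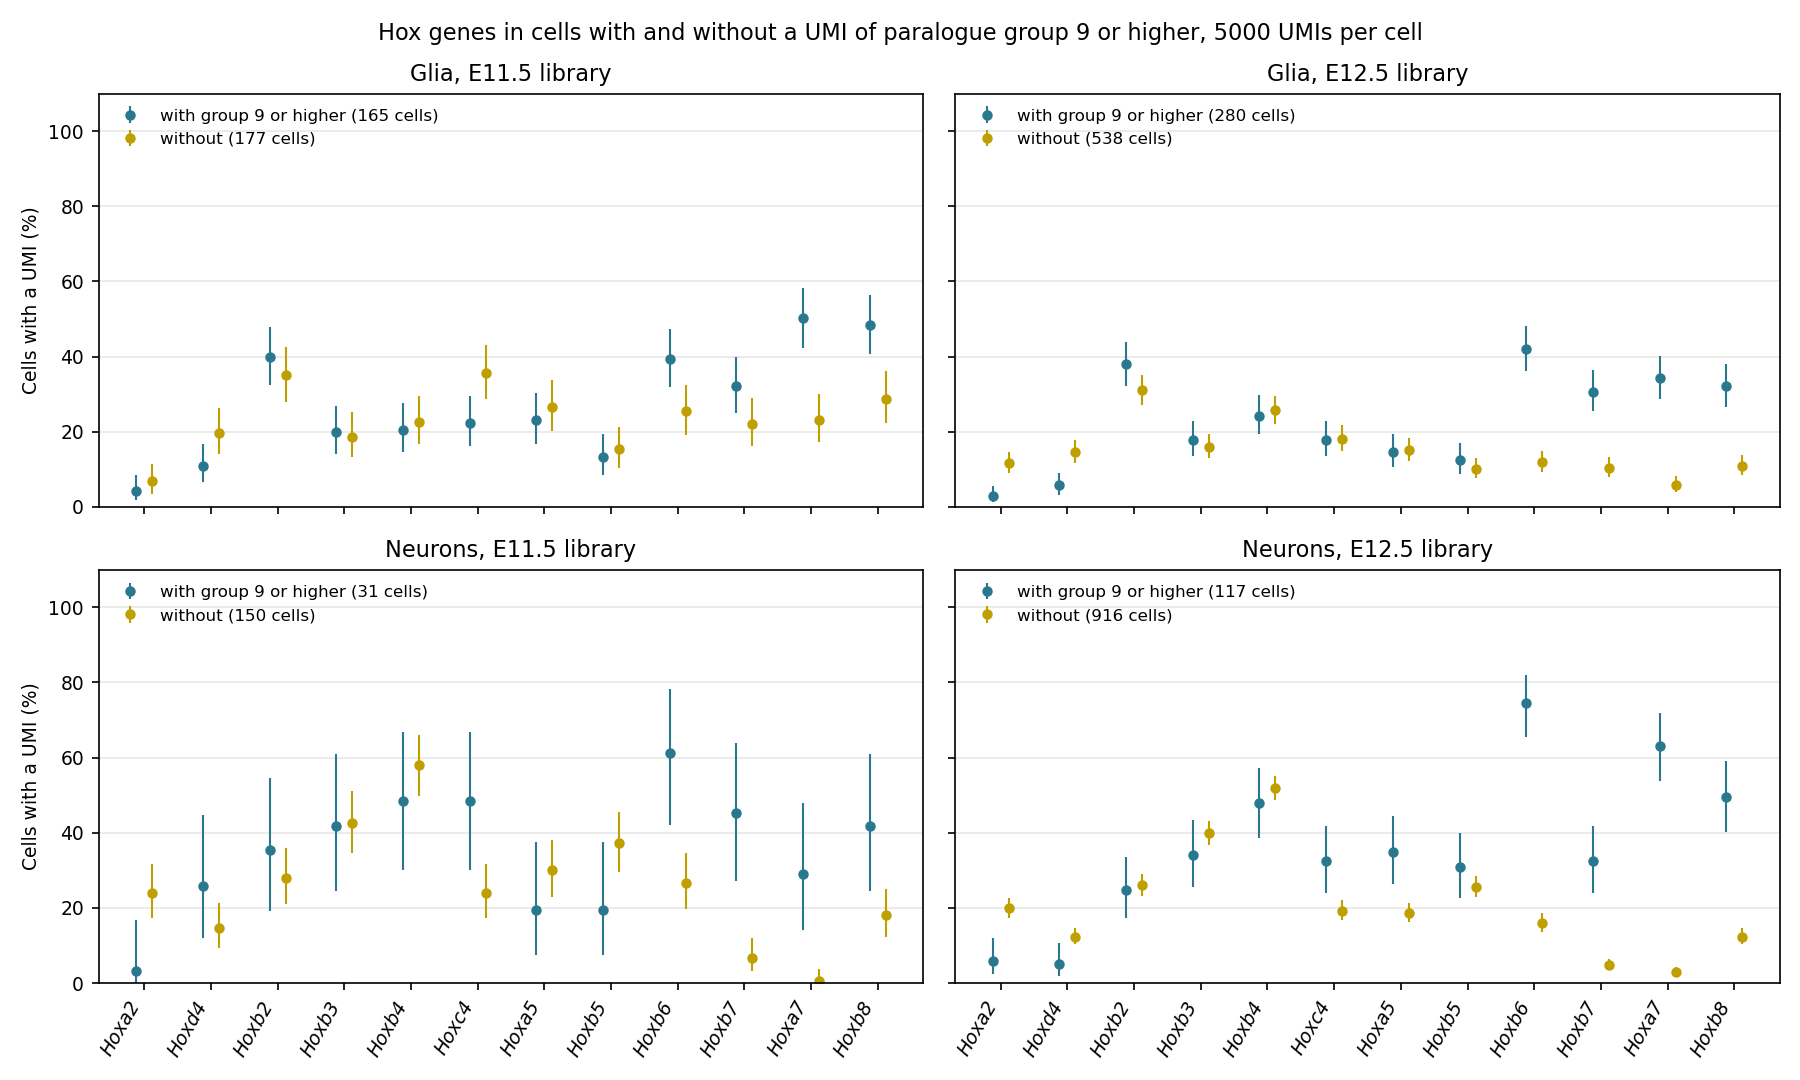
Share of cells with a UMI of 12 Hox genes among cells with (blue) and without (yellow) a UMI of paralogue group 9 or higher, in glia (top) and neurons (bottom) thinned to 5000 UMIs, with 95% binomial intervals. In E12.5 neurons Hoxb6 was in 74.4% against 16.0% and Hoxa7 in 63.2% against 3.06%, while Hoxb4 stood at 47.9% against 51.9% and Hoxa2 at 5.98% against 20.0%.

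Most cells with groups 10 to 13 at E12.5 also had a UMI of group 9. These cells were counted without thinning. Of the 45 glia, 15 neurons and 24 non-neural cells with such a UMI, 42, 14 and 22 had a UMI of group 9. Among the other cells of each class 35.1%, 11.3% and 16.3% did, and the other non-neural cells included the myeloid-like ones. Cells with such a UMI were also deeper, with medians of 6892 against 6071 UMIs in glia. The medians were 6630 against 6474 in neurons and 6096 against 5871 in non-neural cells. The part of depth was not tested. Hoxa10 gave 50 of the 64 UMIs of these groups in glia, and Hoxc10, known with Hoxd10 for lumbar motor neurons, gave 64 of the 81 in non-neural cells.

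In both libraries more members were higher in glia than in non-neural cells, and at E12.5 a group of HoxC members went the other way. At E11.5, 10 of 20 members were over 2-fold higher in glia (16.9% of 10187 genes) and 0 were over 2-fold higher in non-neural cells (12.1%). Hoxb9 had 3 UMIs in non-neural cells, or 5.88 CPM, against 139 CPM in glia, a ratio of 0.0423 (0.00871 to 0.124). Hoxb2, Hoxb4 and Hoxb5 stood at 76.4, 50.9 and 31.3 CPM, with ratios of 0.780, 0.969 and 0.944 to glia and intervals that held 1. Groups 1 to 5 gave 67.9% of the non-neural Hox UMIs (61.2 to 74.1).

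At E12.5, 5 of 22 members were over 2-fold higher in non-neural cells (12.8% of 12080 genes) and 8 in glia (11.4%). All 5 were members of HoxC, namely Hoxc5, which is in groups 1 to 5, and the more posterior Hoxc6, Hoxc8, Hoxc9 and Hoxc10. Hoxc10 had 64 UMIs in non-neural cells and 14 in glia, or 45.0 and 1.79 CPM, a ratio of 25.2 (14.0 to 48.6). Hoxc8 stood at 38.0 CPM against 3.45 in glia (ratio interval 6.82 to 18.2). Hoxc6 had a ratio of 7.85 (5.15 to 12.1), Hoxc9 of 3.62 (2.48 to 5.25) and Hoxc5 of 3.24 (2.24 to 4.65). All 5 overlap the Hoxc5 model on the same strand. Without members that overlap, 5 of 12 tested were over 2-fold higher in glia and 0 in non-neural cells. That 0 was fixed in advance, since leaving out such members removes all 5 named here. Whether the overlap plays a part in the HoxC difference was not tested. Hoxc4, the neighbour with no overlap, had a ratio of 0.719 (0.519 to 0.977). The non-neural class here included the 31 myeloid-like cells, which had no Hoxc4 UMI. Mesenchymal-like cells alone had Hoxc4 at 45.4 CPM (32.6 to 61.5).

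HoxC gave 37.9% of the Hox UMIs of non-neural cells at E12.5 (34.7 to 41.3) against 10.2% in glia and 8.68% in neurons. Within the non-neural cells it was 41.5% (37.8 to 45.3) in mesenchymal-like and 23.9% (17.1 to 31.9) in pericyte-like cells. Of the 64 Hoxc10 UMIs, 59 were in 20 of the 161 mesenchymal-like cells, or 65.3 CPM (49.7 to 84.2), and 5 in 2 of the 32 pericyte-like cells. Hoxa7 stood at 74.1 CPM (57.5 to 94.2) in mesenchymal-like cells, and Hoxb2 at 46.5 (33.5 to 62.8) there and at 122 (79.7 to 179) in pericyte-like cells. Hoxa4 had no UMI in non-neural cells of either library and was at least 2.90-fold lower than in glia at E12.5, taking 3 UMIs over the class as the limit.

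The kind of cell sampled changed with the stage here. E11.5 held 8 mesenchymal-like cells with 42 Hox UMIs, of which 2 were from HoxC, and groups 1 to 5 gave 66.5% (58.8 to 73.6) of the Hox UMIs of pericyte-like cells at E11.5 and 60.1% (51.5 to 68.4) at E12.5. In mesenchymal-like cells at E12.5 they gave 37.9% (34.3 to 41.6). The change of the non-neural class between libraries came together with a change in its mix of cell types. It was not confined to that mix, since the summed Hox level of pericyte-like cells alone also differed. These cells stood at 422 CPM (360 to 491) in the E11.5 library. In the E12.5 library they stood at 647 CPM (544 to 765). The parts of cell type and of stage in the change of the class were not tested.

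**Figure D5:**
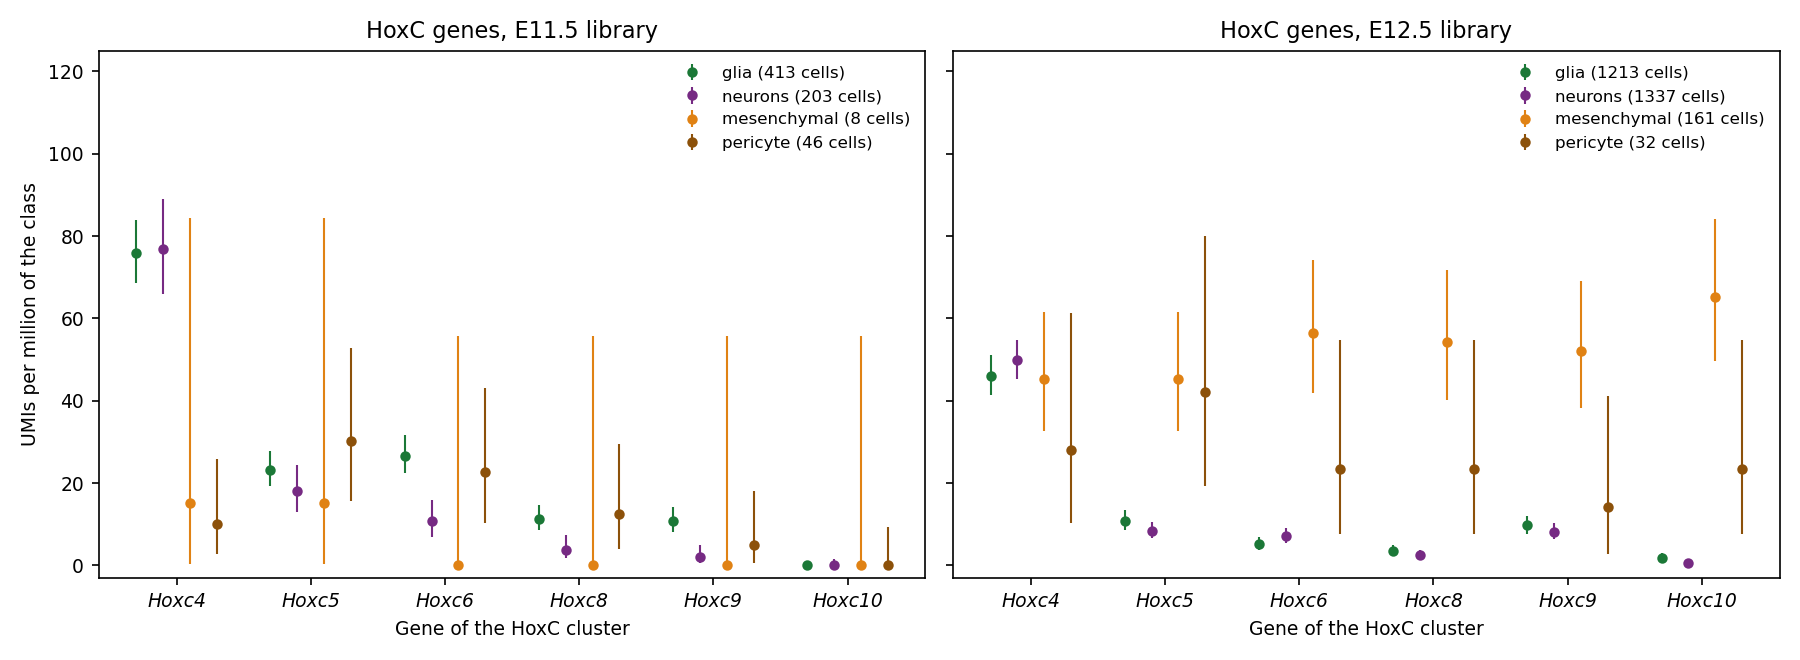
Level of 6 HoxC genes in CPM (linear axis) in glia, neurons, mesenchymal-like and pericyte-like cells, E11.5 on the left and E12.5 on the right, with 95% Poisson intervals. At E12.5 Hoxc10 stands at 65.3 in mesenchymal-like cells, 1.79 in glia and 0.663 in neurons, whereas Hoxc4 lies between 28.1 and 49.8 in all 4 groups. The 8 mesenchymal-like cells at E11.5 have intervals too wide to place them.

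Between the libraries, Hox genes were lower at E12.5 in glia. Of 22 members with 30 or more UMIs in the glia of both libraries together, 5 were over 2-fold higher at E11.5 (1.52% of 12193 genes) and 1 over 2-fold higher at E12.5 (8.26%), and the median ratio of E12.5 over E11.5 was 0.659, where it was 1.06 for all genes with 100 or more UMIs. Hoxc6 fell from 26.7 to 5.11 CPM, a ratio of 0.192 (0.131 to 0.274), and Hoxa7 from 127 to 52.4, a ratio of 0.411 (0.362 to 0.466). Hoxc8 and Hoxc5 were also past 2-fold, with ratios of 0.306 and 0.466. Hoxa10 went from 0 to 50 UMIs and was at least 10.8-fold higher, against 3 UMIs in the glia of E11.5. Hoxa9, Hoxb3 and Hoxb4 had ratios of 1.02, 1.11 and 1.15, with intervals that held 1.

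In neurons, 1 of 22 members was over 2-fold higher at E11.5 (2.21% of 11668 genes), namely Hoxc5 with a ratio of 0.466 (0.315 to 0.696), and 2 were over 2-fold higher at E12.5 (7.95%). These were Hoxc9, with 5 and 74 UMIs and a ratio of 3.81 (1.56 to 12.1), and Hoxd1, with 3 and 50 UMIs and a ratio of 4.29 (1.39 to 21.5). Hoxb3 and Hoxb4 stood at 0.985 (0.856 to 1.14) and 1.02 (0.908 to 1.14), and Hoxb9 at 0.520 (0.405 to 0.672). The median over the 22 members was 0.803.

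The genes that act with or on the Hox genes were read from fixed lists. Over all genes tested, 17.0% at E11.5 and 20.7% at E12.5 were over 2-fold higher in glia than in neurons, and 10.4% and 12.8% in neurons. The lists are short, so their counts are not read as a result about a list. Of 9 TALE cofactors, all with enough UMIs, 2 were over 2-fold higher in glia than in neurons and 2 over 2-fold higher in neurons, in both libraries. Those higher in glia were Pbx2, with ratios of 2.09 (1.62 to 2.72) and 2.87 (2.38 to 3.49), and Pknox2, with 5.11 (2.68 to 10.9) and 2.70 (1.91 to 3.87). Those higher in neurons were Meis3, by 3.95-fold and 4.83-fold, and Meis2, by 3.49-fold and 2.70-fold. In non-neural cells of E12.5, Meis2 was 6.05-fold (4.06 to 9.02) and Pknox2 2.16-fold (1.49 to 3.09) higher than in glia.

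Of 8 genes upstream of Hox genes or of caudal growth, 3 had 30 UMIs. Gmnn, which encodes geminin, a DNA replication inhibitor, was 4.15-fold (3.29 to 5.29) and 5.23-fold (4.48 to 6.13) higher in glia, and Gdf11, a ligand that promotes posterior Hox expression in the trunk, was 3.09-fold and 3.01-fold higher in neurons. Lin28b was within 2-fold in this comparison and was 2.39-fold (1.40 to 3.97) higher in non-neural cells than in glia at E12.5. Polycomb genes keep Hox clusters silent, and 0 of 7 members in the E11.5 library and 1 of 9 in the E12.5 library was past 2-fold, the latter being Cbx2 at 2.03-fold higher in neurons. None of the 5 trithorax and H3K27 demethylase genes was past 2-fold, with Kdm6b nearest at 1.91-fold higher in neurons at E12.5.

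The non-coding RNAs of the clusters were Hotairm1, Hoxb3os and Hoxb5os among 8 listed. Hoxb3os, which lies opposite Hoxb2 and Hoxb3, was 2.05-fold (1.65 to 2.55) higher in glia at E12.5, with a ratio of 0.876 (0.639 to 1.21) at E11.5. In both libraries Hoxb3 was higher in neurons and Hoxb2 higher in glia. Hotairm1 was 2.46-fold (1.55 to 3.77) higher in non-neural cells than in glia at E11.5 and lower at E12.5, with a ratio of 0.562 (0.357 to 0.850). Of 4 genes listed as head markers, only Hmx1 had 30 UMIs, with 36 in neurons and 1 in glia at E12.5. The ratio of neurons over glia was 31.1. Hmx1 alone does not place these neurons at head level, and their origin was not tested. Of the sensory subtype genes, Ntrk3, a receptor of muscle-sensing neurons, was 84.8-fold (32.5 to 315) and 7.35-fold (4.96 to 11.3) higher in neurons than in glia. In the non-neural cells of E12.5, Ntrk2, Ntrk3 and Runx1 were higher than in glia, by 30.5-fold, 24.4-fold and 15.2-fold. Ezh2, the Polycomb methyltransferase, was the member of its list past 2-fold in non-neural cells, with ratios to glia of 0.447 at E11.5 and 0.493 at E12.5.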

How the data were processed

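Processed files of 2 single-cell libraries (10x 3′ V2 kit), 1 per stage, were analysed. The deposited counts are UMI counts per gene and barcode that the authors made with Cell Ranger (7.0 in the submitters' notes, 7.0.1 in the file header) and the mm39 build, not normalized. Totals were 10287595 and 23460243 UMIs. Following the study's filters, barcodes with over 10% mitochondrial UMIs, fewer UMIs than 2000 (E11.5) or 1000 (E12.5), or a Scrublet doublet score of 0.2 or more were removed. The doublet filter took 7 and 67 barcodes (0.833% and 1.88% of those tested). No column of sample values went unused.

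Glia had a UMI of Sox10 and none of Isl1, and neurons a UMI of Isl1 and none of Sox10. Non-neural cells had neither, 3 or more markers of 1 of the mesenchymal, pericyte, endothelial and myeloid lists, and more markers of these lists than of glia and neuron together. Levels are summed UMIs of a class per 1000000 of its UMIs (CPM), with exact Poisson intervals. Ratios of CPM have exact conditional binomial intervals and shares Clopper-Pearson intervals, all at 95% and for counting error only. Co-detection ratios have the Clopper-Pearson interval of the joint share, divided by the product of the separate shares held fixed. Error in that product is left out. Fold counts used genes with 30 or more UMIs in both classes together. Shares of cells were taken after thinning to 2000 UMIs and combinations after thinning to 5000. A count of 0 allowed 3 counts.

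With 1 library per group no test was run. The text gives values for members with a UMI in 5% or more of the cells of a class, for the 10 with the largest ratio of glia and neurons in the same direction in both libraries, and, of each of 7 gene lists, the 2 with the largest ratio each way. The members and lists were chosen with earlier results of these data known. Members named outside this rule, such as Hoxd1 and Hoxa10, were chosen after their values were seen. Some genes are not reported here. The alternatives were another depth or draw of thinning, other UMI minimums, class definitions (2 marker UMIs, or Leiden clusters built without Hox genes), no doublet filter, other scalings and other fold limits. Positions came from GENCODE M39 (GRCm39), matched by gene ID, and promoters from RefSeq (GRCm38.p6). Python 3.11.15, scanpy 1.11.5, numpy 2.4.6 and scipy 1.17.1 were used.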

Additional observations from a re-analysis of the deposited data

Results flagged for a closer look

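Barcodes removed by the filters also held Hox UMIs, a signal outside the comparisons above. At E11.5 there were 781 Hox UMIs in 361 of the 598 removed barcodes, or 1047 CPM, against 1076 CPM in the cells kept. At E12.5 there were 748 in 154 of the 266 removed barcodes, or 745 CPM against 802 CPM. The removed barcodes had medians of 924 and 800 UMIs.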

How the results depend on the processing

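No paired analysis was possible because each stage had 1 library and no result comes from a test. There was no replicate to leave out. Of 191 values recomputed under other settings, 156 stayed within the counting interval of the value in the report, or within 1.5 times of a count, and 35 moved. Among values near 1, the ratio of groups 4 to 5 with group 9 or higher crossed 1 at E11.5 without thinning, with 1.02 in glia and 0.980 in neurons and intervals that held 1 throughout. The order of glia and neurons in the E11.5 share with a Hox UMI also turned, to 83.1% against 78.8% with another draw and 96.8% against 96.1% at 5000 UMIs. The causes were not tested.

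The share with a Hox UMI in glia, neurons and non-neural cells was 98.1%, 99.5% and 82.1% at E11.5 and 90.1%, 94.5% and 74.0% at E12.5 without thinning, 96.8%, 96.1% and 84.8% and 90.0%, 92.2% and 69.2% at 5000 UMIs, and 53.8%, 62.6% and 17.9% and 42.1%, 45.3% and 31.3% when 2 Hox UMIs were required. With classes from 2 UMIs of Sox10 or Isl1, the share in E12.5 glia was 72.2% and the ratio of the Hox level in glia over neurons at E12.5 was 0.888. As a mean over cells, groups 1 to 5 gave 49.3% and 62.0% in glia and 76.4% and 82.8% in neurons at E11.5 and E12.5. At 2000 UMIs, group 9 or higher was reached by 31.5% and 20.6% of glia and by 7.44% of E12.5 neurons.

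Among counts of members past 2-fold, a minimum of 100 UMIs left 3 higher in neurons than in glia at E12.5, and a minimum of 10 gave 2 higher at E12.5 in glia and 2 higher at E11.5 in neurons, as did scaling by the median ratio for the latter. Leaving out members with a same-strand overlap, an alternative chosen after seeing the data as was the share expected over all draws, gave 4 higher in glia than in neurons at E11.5, and 0 higher in non-neural cells and 5 in glia at E12.5. The 0 was fixed in advance, since every member higher in non-neural cells at E12.5 had such an overlap.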
